A study of Mus musculus with 23 samples.

Results

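Cytochrome P450 genes were followed in ear pinna tissue of wild-type and cub mice before and after an ear punch. Of the 81 genes whose symbol had the form of a P450 gene (Cyp, a number, a letter and a number) and which stood alone on an array row, 35 reached a mean of at least 6 on the log2 scale in at least 1 of the 8 groups of arrays, and these 35 are described here, out of 19938 genes tested. Members were thus chosen by name and by level, and with earlier results of these data known. The level was reached in all 8 groups by 29 of them. The other 6 passed through some groups only, namely Cyp4f18 through 4, Cyp2e1 through 2, Cyp4f37 and Cyp2c66 through 6 each, Cyp26c1 through 5 and Cyp2c37 through 1. A gene that passed in this way had to differ between groups to some extent, so the counts over the 35 genes below are descriptions. Just inside the level were Cyp2c37 at 6.05, Cyp26c1 at 6.10 and Cyp2c66 at 6.16, as the highest group mean, and just outside were Cyp27b1 at 5.98, Cyp2r1 at 5.95 and Cyp2d40 at 5.76.

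P450 enzymes are haem proteins that use oxygen and electrons from a reductase partner to insert an oxygen atom into small lipophilic molecules. Families 1, 2 and 3 are known mainly for the metabolism of drugs and other foreign compounds, while the other families act on fatty acids and eicosanoids, retinoic acid, cholesterol and bile acid precursors, and steroid hormones. In skin, P450 enzymes are known for work in the epidermal lipid barrier, in sebaceous glands, in the clearance of retinoic acid and in the metabolism of arachidonic acid.

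RNA from female mice aged 4 weeks was read on 23 whole-transcript arrays (Affymetrix Mouse Gene 1.0 ST). Wild-type mice were Rhbdf2+/+ of the strain C57BL/6J (12 arrays) and cub mice were Rhbdf2cub/cub of the strain B6.Cg-Rhbdf2cub/J (11 arrays). Rhbdf2 encodes iRhom2, a membrane protein that governs the protease ADAM17 and so the release of EGFR ligands, and the cub allele carries a deletion in it. A hole of 2 mm was made through each ear, and the rim of 1 mm around it was taken with a 3-mm biopsy punch after 15 min, 2 h or 24 h. Ears at 0 h carried the treatment label control, and no hole or biopsy size specific to them was recorded. Each group had 3 arrays, except cub at 15 min with 2 arrays, numbered 2 and 3. The mutant mice had a strain name of their own and no label called the wild-type mice littermates, so an effect of the allele and an effect of strain background cannot be told apart.

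Values are log2 RMA values, with differences between genotypes given as cub minus wild type and differences after wounding as the wounded time minus 0 h. Each is given with its standard error, and a gene was called where the Benjamini-Hochberg adjusted p of limma over all 19938 genes was below 0.05. Array medians lay between 6.37 and 6.46. Keratinocyte genes (Krt5, Krt14, Krt1, Krt10 and Tgm1) had a mean log2 value between 12.08 and 12.46 on every array and hepatocyte genes one between 5.07 and 5.29. Rhbdf2 itself was still measured in cub, with group means from 8.32 to 9.12 against 8.70 to 9.0 in wild type; where its probes lie relative to the lost part was not examined, so its level does not check the labels. In whole tissue, fewer cells of a type and less RNA per cell cannot be told apart.

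The genotypes differed in a small set of P450 genes at every time, and 2 of them differed at all 4 times: Cyp2b23 and Cyp2b10 were lower in cub throughout. Before wounding 8 of the 35 genes were called (22.9%, against 5.25% of all genes), 5 higher in cub (3.33% of all genes) and 3 lower (1.93% of all genes). The higher ones were Cyp2e1, Cyp1b1, Cyp2w1, Cyp4f37 and Cyp27a1, and the lower ones Cyp2b23, Cyp2b10 and Cyp17a1. Cyp2b10 and Cyp2b23 kept the call at 0 h under every alternative tried. The count fell to 3 when wild-type replicate 2 at 0 h was left out, to 4 without wild-type replicate 3 or cub replicate 2, and to 5 without wild-type replicate 1 or cub replicate 3, while it was 2 when only the arrays of both 0 h groups were fitted. Macrophage genes were higher in cub at 0 h in 3 of 7 cases, and of 8 sebaceous gland genes 2 were higher and 2 lower, and their part was not tested.

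At 15 min 6 genes were called (17.1%, against 3.45% of all genes). Cyp1b1, Cyp2w1 and Cyp4f37 were higher in cub (1.57% of all genes were called in this direction) and Cyp2b23, Cyp2b10 and Cyp17a1 were lower (1.88% of all genes). All 6 had been called in the same direction at 0 h, on other arrays. None of the 6 was called without cub replicate 3, and the count was 3 without wild-type replicate 1 and 2 without wild-type replicate 3. Hair follicle genes were higher in cub at this time in 5 of 8 cases, with a mean log2 value of 6.88 to 6.93 against 6.02 to 6.11, and their part in the P450 differences was not tested.

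At 2 h 7 genes were called (20%, against 4.41% of all genes). Cyp11a1, Cyp7b1 and Cyp2w1 were higher in cub (3.84% of all genes) and Cyp2b23, Cyp2b10, Cyp17a1 and Cyp3a13 were lower (0.577% of all genes). Only Cyp2b10, Cyp11a1 and Cyp2w1 of these 7 kept their call under every alternative. The count was 3 without cub replicate 1 or without cub replicate 3, and 4 without wild-type replicate 1. Marker genes higher in cub at 2 h were 6 of 7 of macrophages, 4 of 7 of neutrophils, 4 of 6 of fibroblasts and 4 of 6 of mast cells, and their part was not tested.

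At 24 h 9 genes were called (25.7%, against 5.68% of all genes). Cyp7b1, Cyp4f18 and Cyp3a13 were higher in cub (2.24% of all genes) and Cyp2b23, Cyp2j12, Cyp3a57, Cyp2b19, Cyp2b10 and Cyp4b1 were lower (3.44% of all genes). Cyp7b1, Cyp3a13, Cyp2b10, Cyp2j12 and Cyp3a57 kept their call under every alternative, and 5 genes were called without cub replicate 3. Of all genes tested, 0.0702% were lower in cub at all 4 times, and 0.105% were higher at all 4 times, among which was no P450 gene. Of the 35 P450 genes, 19 were called between the genotypes at no time, 8 at 1 time, 4 at 2 times, 2 at 3 times and 2 at 4 times.

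Averaged over the 4 times, 16 P450 genes were called (45.7%, against 18.3% of all genes), 9 higher (9.71% of all genes) and 7 lower (8.56% of all genes). Among the 13741 genes that reached the same level the shares were higher than among all genes: 24.9% were called on average over the times, 7.31% at 0 h, 4.02% at 15 min, 6.11% at 2 h and 8% at 24 h. The median difference over the 35 genes was -0.039 on average, beside 0.009 for all genes, with 15 genes above 0 and 20 below.

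**Figure D1:**
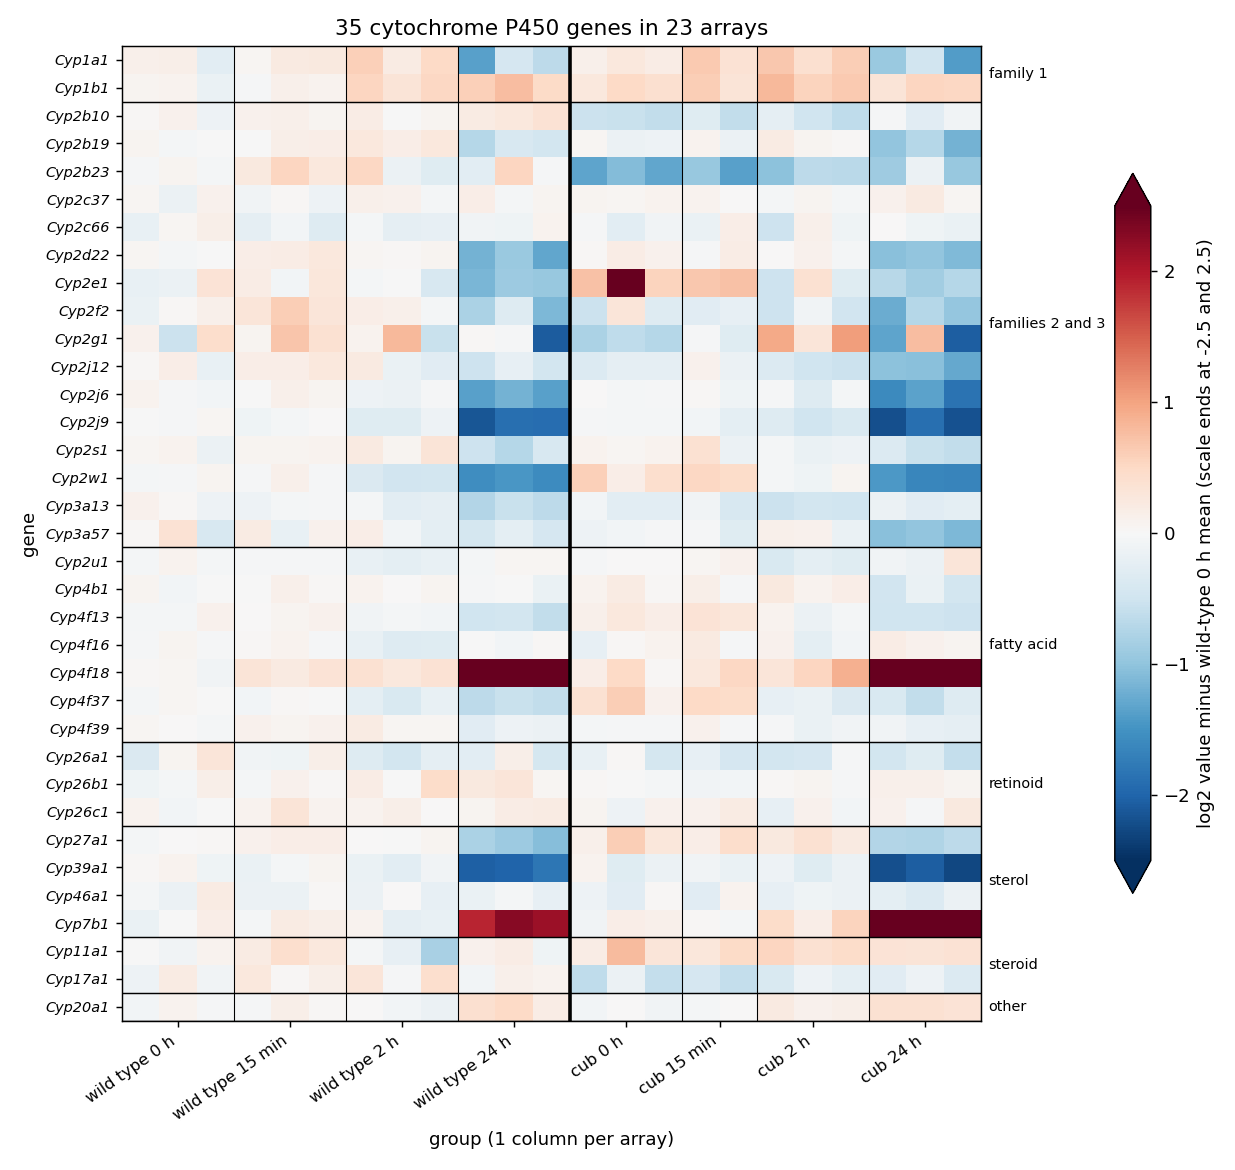
Heat map of the 35 P450 genes (rows, grouped by the kind of substrate) in the 23 arrays (columns, grouped by genotype and time), coloured by the log2 value minus the mean of the wild-type 0 h arrays, with the scale ending at -2.5 and 2.5. Both blocks of 24 h columns carry most of the strong colour, with Cyp4f18 and Cyp7b1 high and Cyp2j9, Cyp39a1 and Cyp2w1 low, while Cyp2b23 and Cyp2b10 are low in the cub columns.

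Wounding changed the P450 genes mainly at 24 h, and mostly downwards. In wild type 22 of the 35 genes were called at 24 h (62.9%, against 42.8% of all genes), 5 higher (20.5% of all genes) and 17 lower (22.4% of all genes). In cub 21 were called (60%, against 46% of all genes), 5 higher (21.1% of all genes) and 16 lower (24.9% of all genes). Among the 13741 genes that reached the level of 6, 58.5% were called in wild type and 62.4% in cub, close to the shares among the P450 genes. The split by direction in those genes was 28.2% higher and 30.2% lower in wild type and 28.3% higher and 34.1% lower in cub. In both genotypes 15 P450 genes fell (19.5% of all genes) and 4 rose (17.7% of all genes). The median change of the 35 genes was -0.19 in wild type and -0.15 in cub, beside -0.02 and -0.003 over all genes.

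Before that, fewer P450 genes were called, none at 15 min and more in cub than in wild type at 2 h. At 15 min no P450 gene was called against 0 h in wild type (0.0351% of all genes) or in cub (0.0251% of all genes), and 3 genes in wild type and 0 in cub had an unadjusted limma p under 0.05. At 2 h 2 genes were called in wild type (5.71%, against 7.97% of all genes), Cyp1b1 upwards (3.98% of all genes) and Cyp2w1 downwards (4% of all genes). In cub 7 genes were called at 2 h (20%, against 11.9% of all genes), all of them lower (4.28% of all genes), namely Cyp2e1, Cyp4f37, Cyp2w1, Cyp2j9, Cyp2u1, Cyp3a13 and Cyp4f13. Among genes at the same level 11.1% were called in wild type and 16.6% in cub at 2 h, and 5.86% were called lower in cub. Whether the change at 2 h differed between the genotypes was tested as an interaction, the wounding change in cub minus that in wild type, and no P450 gene was called there (0.13% of all genes), with 5 at an unadjusted limma p under 0.05. At 15 min no gene of any kind was called as an interaction (0%), and no P450 gene had an unadjusted p under 0.05. At 24 h 2 P450 genes were called as interactions (5.71%, against 1% of all genes), Cyp3a13 and Cyp7b1, both positive (0.256% of all genes).

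Of the family 2 enzymes, the subfamily 2B is known for metabolism of drugs and of arachidonic acid, and Cyp2b10 is the classical liver target of the nuclear receptor CAR, the product of Nr1i3. Cyp2b19 is known as an arachidonic acid epoxygenase of keratinocytes. Cyp2b10, Cyp2b23 and Cyp2b19 lie in 1 cluster of Cyp2 genes on chromosome 7 with Cyp2s1, Cyp2g1 and Cyp2f2. The probes of such near copies can share signal, and their sequences were not examined. Since Cyp2b10 and Cyp2b23 were low together in cub, their promoters are given here beside that of Cyp2b19. Each is the 250 bases before the RefSeq start in GRCm38.p6, 5′ to 3′ on the gene's strand. Capitals mark a run of 10 bases shared by the 3 promoters. No shared run was longer, but another run of 10 bases, further upstream in each, is also shared and is not marked.
Cyp2b10 (chr7:25897408-25897657, + strand): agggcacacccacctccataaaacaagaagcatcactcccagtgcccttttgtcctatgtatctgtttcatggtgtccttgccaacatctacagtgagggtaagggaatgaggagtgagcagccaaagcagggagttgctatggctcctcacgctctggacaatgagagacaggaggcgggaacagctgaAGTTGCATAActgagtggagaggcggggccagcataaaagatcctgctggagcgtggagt
Cyp2b23 (chr7:26686431-26686680, - strand): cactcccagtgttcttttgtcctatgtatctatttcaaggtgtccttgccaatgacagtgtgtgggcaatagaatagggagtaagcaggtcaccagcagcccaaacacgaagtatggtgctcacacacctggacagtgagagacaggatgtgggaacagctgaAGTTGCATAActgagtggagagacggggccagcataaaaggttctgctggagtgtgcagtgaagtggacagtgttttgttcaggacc
Cyp2b19 (chr7:26756892-26757141, + strand): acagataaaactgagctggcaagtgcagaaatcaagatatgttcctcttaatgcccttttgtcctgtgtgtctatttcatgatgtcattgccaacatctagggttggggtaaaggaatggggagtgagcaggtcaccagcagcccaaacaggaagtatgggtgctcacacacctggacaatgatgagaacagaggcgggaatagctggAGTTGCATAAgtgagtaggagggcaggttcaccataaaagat
Counted from the start, the capitals begin at -60 in Cyp2b10, at -87 in Cyp2b23 and at -42 in Cyp2b19. The Cyp2b10 and Cyp2b23 promoters shared a longer run of 34 bases around the capitals. In global alignments 62.8% of the columns were identical between Cyp2b10 and Cyp2b23, 66.5% between Cyp2b10 and Cyp2b19 and 56.4% between Cyp2b23 and Cyp2b19, beside 44.3% between Cyp2b10 and Cyp1b1. The similarity describes related genes and says nothing of what binds there.

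Cyp2b23 was the P450 gene with the largest genotype difference on average over the times, -1.07 ± 0.11 (adjusted p = 1.7e-06, n = 12 wild type and 11 cub), a 2.10-fold lower signal in cub. The wild-type arrays read 7.91, 7.99 and 7.89 at 0 h, and the cub arrays 6.61, 6.84 and 6.64. At 15 min wild type read 8.17, 8.47 and 8.20 and cub 6.98 and 6.58. No cub array reached a wild-type array at 0 h or 15 min, and the differences were -1.23 ± 0.21 (adjusted p = 0.0021) and -1.5 ± 0.24 (adjusted p = 0.0028). At 2 h wild type read 8.44, 7.79 and 7.62 and cub 6.90, 7.28 and 7.26, again without overlap, a difference of -0.80 ± 0.21 (adjusted p = 0.035). Of all genes, 11.5% at 0 h, 15.6% at 15 min and 7.28% at 2 h were likewise lower in cub without overlap. At 24 h wild type read 7.67, 8.47 and 7.91 and cub 7.05, 7.79 and 6.98. Here the groups overlapped, cub replicate 2 lying above wild-type replicate 1, and the difference was -0.74 ± 0.21 (adjusted p = 0.044). The 24 h call was lost when arrays were centred on their median (adjusted p = 0.052), after quantile normalization over the genes tested (adjusted p = 0.051) and without wild-type replicate 2 or 3 or cub replicate 1 or 3 (adjusted p up to 0.235). The 15 min call was lost without cub replicate 3 (adjusted p = 0.076) and the 2 h call without any 1 array other than wild-type replicate 3 (adjusted p up to 0.19), so that the average over times and the 0 h difference are the firmest values of Cyp2b23.

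Cyp2b10 differed by less, and by about as much at each time. At 0 h the wild-type arrays read 10.74, 10.82 and 10.59 and the cub arrays 10.17, 10.16 and 10.10, a difference of -0.57 ± 0.094 (adjusted p = 0.0013). At 24 h wild type read 10.93, 10.99 and 11.08 and cub 10.68, 10.43 and 10.63, a difference of -0.42 ± 0.094 (adjusted p = 0.010). The arrays of the 2 genotypes were apart at all 4 times. Of all genes, 11.5% at 0 h, 15.6% at 15 min, 7.28% at 2 h and 9.91% at 24 h were lower in cub without overlap. The differences in between were -0.56 ± 0.105 at 15 min and -0.53 ± 0.094 at 2 h, and the 15 min call alone depended on 1 array (adjusted p = 0.17 without cub replicate 3). On average over the times Cyp2b10 was 1.43-fold lower in cub (-0.52 ± 0.048, adjusted p = 4.8e-07). After wounding Cyp2b10 rose at 24 h in both genotypes, by 0.28 ± 0.094 in wild type and 0.44 ± 0.094 in cub, and the wild-type rise lost its call without wild-type replicate 3 at 24 h (adjusted p = 0.077) or replicate 3 at 0 h (adjusted p = 0.10). Cyp2b23 was called at 24 h in cub, with a rise of 0.58 ± 0.21 (adjusted p = 0.032), and not in wild type, at 0.087 ± 0.21. The interaction of 0.49 ± 0.30 was not called (adjusted p = 0.61), and the cub rise lost its call without cub replicate 2 at 24 h (0.32, adjusted p = 0.25) or cub replicate 1 or 3 at 0 h (adjusted p = 0.0897 and 0.0805).

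Cyp2b19, the keratinocyte epoxygenase, went the other way after wounding. The wild-type arrays read 10.50, 10.38 and 10.42 at 0 h and 9.72, 10.03 and 9.97 at 24 h, and the cub arrays went from 10.48, 10.29 and 10.30 to 9.45, 9.73 and 9.26. It fell by 0.53 ± 0.10 in wild type (adjusted p = 1.5e-04) and by 0.88 ± 0.10 in cub (adjusted p = 1.8e-07). Every 24 h array lay below every 0 h array of its genotype, as in 26.3% of all genes in wild type and 26.9% in cub. At 24 h cub was lower than wild type by -0.43 ± 0.10 (adjusted p = 0.014), with groups that overlapped by 1 array. That call was lost without wild-type replicate 2 or 3 (adjusted p = 0.067 and 0.056) or cub replicate 3 (adjusted p = 0.11). It was also lost with only the arrays of the groups compared (adjusted p = 0.13). Averaged over the 4 times, Cyp2b19 was lower in cub too (-0.19, adjusted p = 0.013). The averaged difference was called in 28 of 29 alternatives, and it was -0.16 in the other, without cub replicate 3 at 15 min.

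**Figure D2:**
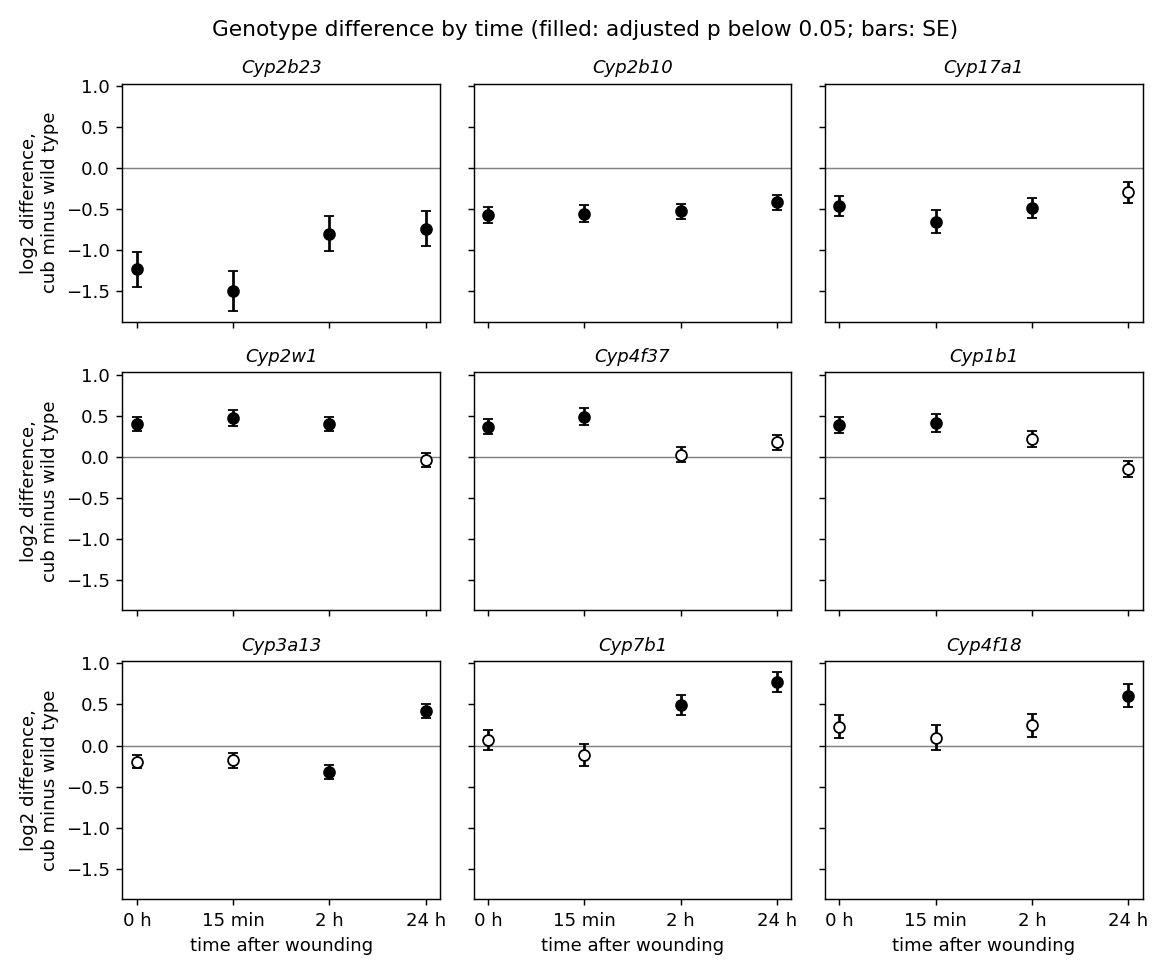
Log2 difference, cub minus wild type, of 9 P450 genes at 0 h, 15 min, 2 h and 24 h (points, with bars of 1 standard error; filled points have an adjusted p below 0.05). Cyp2b23 and Cyp2b10 lie below 0 at all 4 times, Cyp2w1 lies above 0 up to 2 h and at -0.043 at 24 h, and Cyp3a13 passes from -0.32 at 2 h to 0.42 at 24 h.

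Cyp2e1, known for the oxidation of ethanol and small solvents and for its place in liver and fat, gave the largest positive difference at 0 h, and 1 array carried much of it. It reached the level of 6 only in cub at 0 h (7.03) and 15 min (6.43), so its higher value there is what admitted it, and its differences from these groups are given as descriptions. Wild-type arrays read 5.54, 5.58 and 6.07 and cub arrays 6.47, 8.34 and 6.29. All 3 cub arrays were above wild type (as in 11.3% of all genes), and cub replicate 2 stood far above the other 2. The difference was 1.30 ± 0.33 (2.47-fold, adjusted p = 0.025), and without cub replicate 2 it was 0.65 (adjusted p = 0.099). The call was also lost without wild-type replicate 1 (1.21, adjusted p = 0.076) or 2 (1.23, adjusted p = 0.10). The 6 adipocyte genes tested had a mean log2 value of 9.89 on that array, 8.59 and 9.04 on the other two cub arrays and 8.60 to 8.72 on the wild-type arrays, and none of the 6 was called at 0 h. At 2 h Cyp2e1 read 5.69, 5.72 and 5.32 in wild type and 5.21, 6.12 and 5.43 in cub, and it fell against 0 h in cub (-1.45 ± 0.33, adjusted p = 0.0058). That fall was -0.79 without cub replicate 2 at 0 h, and its call was lost with only the arrays of both groups (adjusted p = 0.10). Of the adipocyte genes 4 of 6 fell with it in cub at 2 h. At 24 h it was low on every array, at 4.58, 4.82 and 4.78 in wild type and 5.04, 4.86 and 5.01 in cub. Cyp2e1 fell by 1.0 ± 0.33 in wild type (adjusted p = 0.018) and fell by 2.06 ± 0.33 in cub (adjusted p = 2.2e-05), and 5 of 6 adipocyte genes fell in wild type and 6 of 6 in cub. Their mean lay between 7.37 and 8.15 in wild type and 7.77 and 8.03 in cub at 24 h, and their part in the change of Cyp2e1 was not tested. The interaction at 24 h, -1.06 ± 0.47, was not called (adjusted p = 0.40), and the wild-type fall lost its call without replicate 1 at 24 h (adjusted p = 0.061) or replicate 3 at 0 h (adjusted p = 0.088).

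**Figure D3:**
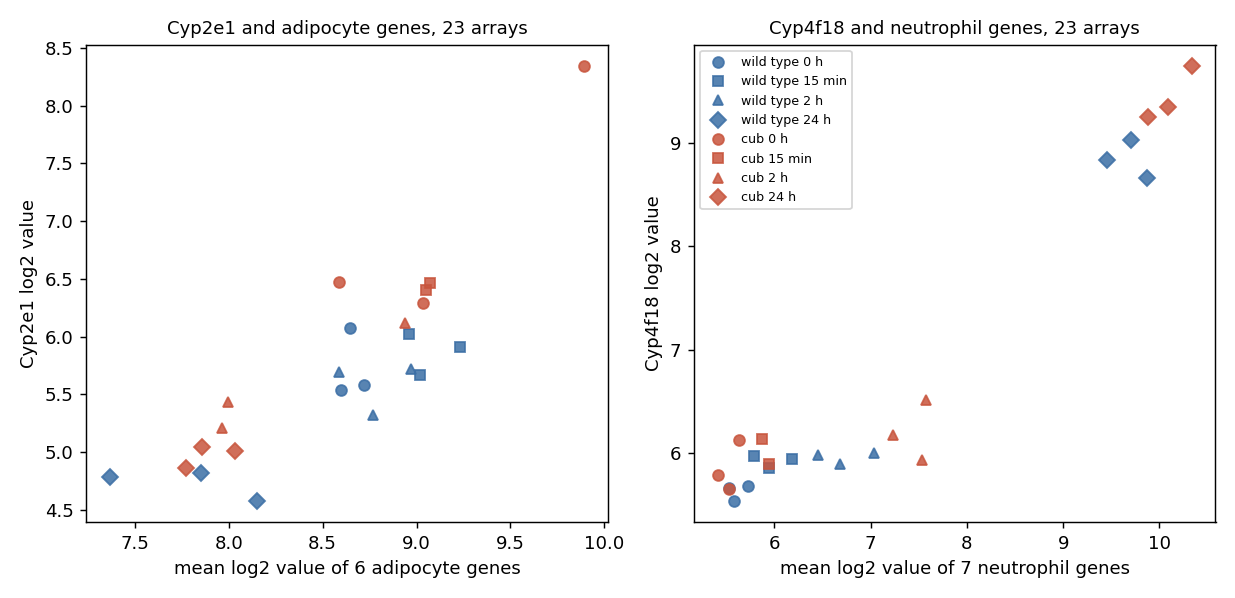
Left, the Cyp2e1 log2 value of each of the 23 arrays (vertical axis) against the mean log2 value of 6 adipocyte genes on the same array; right, Cyp4f18 against 7 neutrophil genes, with colour for genotype and shape for time. The cub 0 h array at 8.34 for Cyp2e1 is also the one with the highest adipocyte mean, 9.89, and the 6 arrays at 24 h form a group of their own in the right panel, with neutrophil means from 9.46 to 10.34.

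Cyp2w1 encodes an enzyme known from colon and from tumours. It was higher in cub up to 2 h and fell to the same low level in both genotypes by 24 h. At 0 h wild type read 8.18, 8.21 and 8.31 and cub 8.82, 8.40 and 8.66, and at 2 h wild type read 7.87, 7.76 and 7.78 and cub 8.18, 8.12 and 8.30. The differences were 0.39 ± 0.085 at 0 h (adjusted p = 0.0093), 0.47 ± 0.095 at 15 min (adjusted p = 0.013) and 0.40 ± 0.085 at 2 h (adjusted p = 0.0087), without overlap. Of all genes, 11.3%, 22.4% and 13.6% were higher in cub without overlap at these times. At 15 min the call was lost without wild-type replicate 3 (adjusted p = 0.054) or cub replicate 3 (adjusted p = 0.091). It fell at 2 h by 0.43 ± 0.085 in each genotype. At 24 h wild type read 6.68, 6.77 and 6.67 and cub 6.80, 6.61 and 6.58, a difference of -0.043 ± 0.085 that was not called. It fell by 1.53 ± 0.085 from 0 h in wild type (adjusted p = 5.5e-12) and fell by 1.96 ± 0.085 in cub (adjusted p = 6.9e-14), and the interaction of -0.44 ± 0.12 missed the threshold (adjusted p = 0.090).

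The Cyp2j genes encode enzymes of a subfamily known for metabolism of arachidonic acid and lie side by side on chromosome 4. Cyp2j9 fell by 1.98 ± 0.083 in wild type (adjusted p = 6.5e-14) and fell by 2.05 ± 0.083 in cub (adjusted p = 2.4e-14), the largest falls of the family in wild type and, with Cyp39a1 and Cyp2e1, in cub. Its 0 h arrays read 8.89, 8.87 and 8.95 in wild type and 8.87, 8.86 and 8.86 in cub, and its 24 h arrays 6.76, 7.02 and 7.0 and 6.71, 7.02 and 6.72. The replicates of Cyp2j9 were close to each other, and the genotypes overlapped at 24 h. Cyp2j9 was already lower at 2 h in cub (-0.36 ± 0.083, adjusted p = 0.0059), on arrays reading 8.58, 8.41 and 8.53. Cyp2j6 read 10, 9.90 and 9.86 at 0 h and 8.56, 8.73 and 8.56 at 24 h in wild type, and 9.92, 9.87 and 9.90 and then 8.32, 8.58 and 8.08 in cub. It fell by 1.30 ± 0.095 in wild type and by 1.57 ± 0.095 in cub. Cyp2j12 fell by 0.39 ± 0.12 in wild type and by 0.85 ± 0.12 in cub, and at 24 h it read 7.62, 7.94 and 7.68 in wild type against 7.12, 7.10 and 6.87 in cub. This difference of -0.72 ± 0.12 (adjusted p = 9.3e-04) was called under every alternative, while the wild-type fall was lost without replicate 2 at 0 h (adjusted p = 0.056). Whether probes are shared among these near copies was not examined.

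Cyp3a13 encodes an enzyme of the drug-metabolizing family 3, and it was the P450 gene whose response to wounding differed between the genotypes under every alternative. Wild-type arrays read 8.01, 7.93 and 7.79 at 0 h, 7.79, 7.87 and 7.88 at 15 min, 7.87, 7.65 and 7.69 at 2 h and 7.18, 7.36 and 7.25 at 24 h. Cub arrays read 7.85, 7.64 and 7.65 at 0 h, 7.83 and 7.51 at 15 min, 7.38, 7.45 and 7.41 at 2 h and 7.76, 7.63 and 7.67 at 24 h. Wild type thus reached its lowest values at 24 h, and cub reached its lowest at 2 h. In wild type it fell by 0.65 ± 0.082 at 24 h (adjusted p = 1.1e-06), and in cub the difference was -0.027 ± 0.082 (adjusted p = 0.84). The interaction was 0.62 ± 0.12 (adjusted p = 0.011). Between the genotypes it was lower in cub at 2 h (-0.32 ± 0.082, adjusted p = 0.027) and higher at 24 h (0.42 ± 0.082, adjusted p = 0.0041), without overlap at either time. Of all genes, 7.28% were lower in cub without overlap at 2 h, and 8.41% were higher without overlap at 24 h. The 2 h difference lost its call without wild-type replicate 1 or 3 or cub replicate 1 or 3 (adjusted p up to 0.135), as did the fall at 2 h in cub (-0.30 ± 0.082) without cub replicate 1 or 3 at 2 h or replicate 1 at 0 h (adjusted p up to 0.12).

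Cyp3a57, of the same family, went from 8.30, 8.64 and 7.87 at 0 h to 7.83, 8.03 and 7.85 at 24 h in wild type, with overlap. In cub it went from 8.14, 8.20 and 8.24 to 7.22, 7.28 and 7.14, and fell by 0.98 ± 0.14 (adjusted p = 5.5e-06). At 24 h cub was lower by -0.69 ± 0.14 (adjusted p = 0.0064). The wild-type change of -0.37 ± 0.14 had an adjusted p of 0.043 and lost its call without any of replicates 1 and 3 at 24 h and 1 and 2 at 0 h (adjusted p up to 0.33). It was -0.18 without wild-type replicate 2 at 0 h and -0.57 without replicate 3 at 0 h. A further array row carried the symbols Cyp3a59, Cyp3a57 and Cyp3a25 together and had group means from 4.43 to 4.93, and it was not used.

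Among the remaining enzymes of families 2 and 3, Cyp2d22 fell by 1.14 ± 0.075 in wild type and by 1.15 ± 0.075 in cub at 24 h (adjusted p = 8.3e-11 and 4.0e-11). Its arrays read 7.17, 7.41 and 7.04 and 7.30, 7.35 and 7.24 at that time, with no genotype difference called at any time. Cyp2s1, an epithelial enzyme inducible by dioxin, fell by 0.55 ± 0.11 in wild type and by 0.58 ± 0.11 in cub. Cyp2f2, known from the airway, read 10.17, 10.35 and 10.46 at 0 h and 9.53, 10.01 and 9.20 at 24 h in wild type, and 9.78, 10.62 and 10 and then 9.09, 9.61 and 9.36 in cub. It fell by 0.75 ± 0.19 and 0.78 ± 0.19, and on average over the times it was lower in cub (-0.38 ± 0.099, adjusted p = 0.010), while no single time was called. Cyp2g1, known from nasal mucosa, spread widely within groups, with an SD of up to 1.47 at 24 h in cub, where its arrays read 8.57, 10.66 and 7.83. Cyp2g1 was called in no comparison, and its largest difference was between 2 h (10.84, 10.19 and 10.94) and 0 h (9.10, 9.25 and 9.17) in cub. It was 1.48 ± 0.55 without overlap (adjusted p = 0.086, and 0.0011 with only the arrays of both groups), and 14.6% of all genes rose without overlap there. Cyp2c37 and Cyp2c66 lay near the level of 6 in every group, at 5.86 to 6.05 and 5.95 to 6.16, and were called in no comparison. Over the 16 enzymes of families 2 and 3, 11 fell and 1 rose at 24 h in wild type, and 10 fell and 2 rose in cub, with median changes of -0.60 and -0.82. Of all genes, 22.4% fell and 20.5% rose in wild type and 24.9% fell and 21.1% rose in cub, and of genes at the same level 30.2% and 34.1% fell.

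Sebaceous gland genes moved at the same time, and their part in these falls was not tested. Of 8 such genes 4 fell in wild type and 6 in cub at 24 h, and their mean log2 value per array went from 9.22 to 9.37 at 0 h to 8.90 to 8.96 in wild type, and from 9.48 to 9.80 to 8.74 to 8.78 in cub. Between the genotypes 2 were higher and 2 lower in cub at 0 h, 2 were higher at 15 min and 2 at 2 h, 4 were lower at 24 h, and 3 were higher and 5 lower on average over the times. Of 5 keratinocyte genes, 3 rose and 1 fell in wild type and 2 rose and 2 fell in cub at 24 h. Their mean lay between 12.26 and 12.36 in wild type and between 12.41 and 12.45 in cub at that time, beside 12.09 in wild type and 12.34 to 12.46 in cub at 0 h. Skeletal muscle genes fell in 6 of 6 cases in each genotype at 24 h, fibroblast genes in 4 of 6 in each, and cartilage genes in 4 of 5 in wild type and 3 of 5 in cub.

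**Figure D4:**
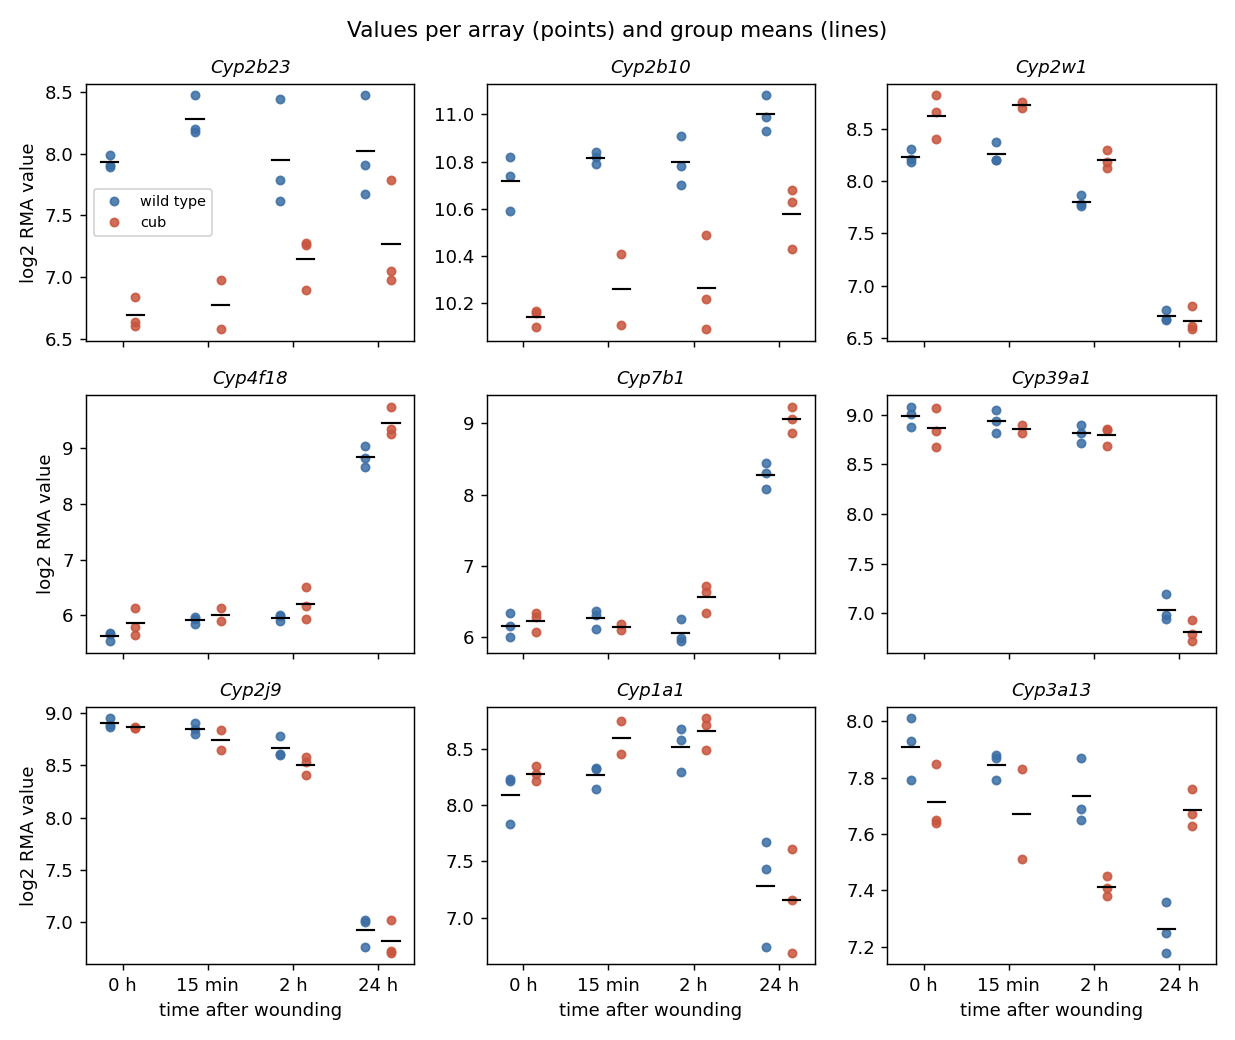
Log2 value per array (points) and group mean (lines) of 9 P450 genes by time, in wild type and cub. Cyp4f18 and Cyp7b1 stand high in both genotypes at 24 h, Cyp39a1, Cyp2j9 and Cyp2w1 low, and Cyp3a13 at 24 h is low in wild type (7.18 to 7.36) and not in cub (7.63 to 7.76).

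The family 1 enzymes Cyp1a1 and Cyp1b1 are the classical targets of the aryl hydrocarbon receptor AHR, and in wild type they moved apart at 24 h. Cyp1a1 read 8.21, 8.23 and 7.83 in wild type at 0 h and 6.74, 7.67 and 7.43 at 24 h, and 8.21, 8.35 and 8.28 and then 7.16, 7.61 and 6.69 in cub. It fell by 0.81 ± 0.20 in wild type (adjusted p = 0.0021) and by 1.13 ± 0.20 in cub (adjusted p = 6.4e-05), with wide spread between the 24 h arrays. At 2 h Cyp1a1 was at 8.68, 8.29 and 8.58 in wild type and 8.77, 8.49 and 8.71 in cub, differences from 0 h of 0.43 ± 0.20 and 0.38 ± 0.20 that were not called. Cyp1b1 rose in wild type by 0.46 ± 0.099 at 2 h (adjusted p = 0.0047) and by 0.61 ± 0.099 at 24 h (adjusted p = 2.5e-05). Its wild-type arrays read 8.28, 8.29 and 8.05 at 0 h, 8.75, 8.53 and 8.72 at 2 h and 8.80, 8.97 and 8.68 at 24 h. In cub Cyp1b1 started higher, at 8.47, 8.71 and 8.60, and read 9.02, 8.76 and 8.87 at 2 h and 8.53, 8.74 and 8.72 at 24 h. Neither change in cub was called (0.29 ± 0.099 and 0.07 ± 0.099), and the interaction at 24 h, -0.54 ± 0.14, missed the threshold (adjusted p = 0.067). The genotype difference of Cyp1b1 was 0.39 ± 0.099 at 0 h (adjusted p = 0.024) and 0.41 ± 0.11 at 15 min (adjusted p = 0.043). Both calls were fragile: the first was lost without wild-type replicate 2 or 3 or cub replicate 2 or 3 (adjusted p up to 0.14), and the second without any 1 array (adjusted p up to 0.20), with a difference of 0.26 without cub replicate 2.

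The core of the AHR response element, GCGTG, was searched on both strands in the 250 bases before each start. It was present in 10 of the 30 promoter windows of P450 members (29 genes had an entry, Cyp11a1 with 2 windows), beside 28.2% of all 32851 windows. Counted from the start, Cyp1a1 held it at -54 and Cyp1b1 at -76, and Cyp2b10 and Cyp2w1 were among the other holders. The Cyp1b1 window is shown because, of both family 1 members, this gene alone had a called rise, in wild type at 2 h and 24 h. The match is in capitals, read from the other strand as CACGC.
Cyp1b1 (chr17:79715062-79715311, - strand): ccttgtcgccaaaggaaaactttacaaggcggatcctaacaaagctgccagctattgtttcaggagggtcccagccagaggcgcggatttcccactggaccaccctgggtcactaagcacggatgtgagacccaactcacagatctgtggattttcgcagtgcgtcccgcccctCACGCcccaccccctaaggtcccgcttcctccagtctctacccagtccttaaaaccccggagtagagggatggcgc
The AP-1 site TGANTCA was present in 4 member windows (6.75% of all windows), those of Cyp4b1, Cyp3a13, Cyp4f16 and Cyp4f37 and the TATA box TATAAA in 4 (12.4% of all windows). These matches are letters in a short window and not measured binding. No promoter is given for Cyp39a1, Cyp2d22, Cyp2u1, Cyp7b1, Cyp17a1 and Cyp2g1.

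The fatty acid hydroxylases held the strongest rise of the family. Cyp4f18 encodes an enzyme known from mouse neutrophils, where it hydroxylates the chemoattractant leukotriene B4. Wild-type arrays read 5.66, 5.68 and 5.54 at 0 h and 8.66, 9.03 and 8.83 at 24 h, and cub arrays 5.79, 6.13 and 5.65 and then 9.25, 9.35 and 9.74. Cyp4f18 reached the level of 6 in both 24 h groups and in cub at 15 min and 2 h, so its higher values there admitted it. Its differences from these groups are given as descriptions. Cyp4f18 rose by 3.21 ± 0.14 in wild type (9.28-fold, adjusted p = 1.1e-13) and by 3.59 ± 0.14 in cub (12-fold, adjusted p = 1.3e-14). At 24 h it was higher in cub by 0.61 ± 0.14 (adjusted p = 0.012), with every cub array above every wild-type array, as in 8.41% of all genes. The call was lost without wild-type replicate 1 (adjusted p = 0.060) or cub replicate 3 (adjusted p = 0.10). It was also lost with only the arrays of the groups compared (adjusted p = 0.068). The interaction of 0.38 ± 0.20 was not called (adjusted p = 0.51). All 7 neutrophil genes rose at 24 h in both genotypes, with a mean log2 value of 9.46 to 9.87 on the wild-type arrays and 9.88 to 10.34 on the cub arrays, from 5.41 to 5.73 at 0 h. Of these 7 genes 2 were higher in cub at 24 h, and their part in the level of Cyp4f18 was not tested. At 2 h all 7 neutrophil genes had already risen in both genotypes, to means of 6.45 to 7.04 and 7.23 to 7.57, while Cyp4f18 read 6.0, 5.89 and 5.98 in wild type and 5.93, 6.17 and 6.51 in cub and was not called.

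The other fatty acid hydroxylases fell or were not called at 24 h. Cyp4f13 read 8.45, 8.45 and 8.61 at 0 h and 8.0, 8.04 and 7.88 at 24 h in wild type, and 8.63, 8.77 and 8.67 and then 8.0, 8.0 and 7.99 in cub. It fell by 0.53 ± 0.062 in wild type and by 0.69 ± 0.062 in cub, and was higher in cub on average over the times by 0.12 ± 0.032 (adjusted p = 0.010). Its fall at 2 h in cub, 0.22 ± 0.062, lost its call without cub replicate 2 or 3 at 2 h or cub replicate 2 at 0 h (adjusted p up to 0.13). Cyp4f37 fell at 24 h by 0.62 ± 0.093 and 0.81 ± 0.093. Cyp4f37 was below the level of 6 in both 24 h groups (5.74 and 5.91) and above it in the other groups, so these falls are given as descriptions. It was higher in cub at first, with arrays at 6.73, 6.96 and 6.47 against 6.31, 6.41 and 6.34 at 0 h and at 6.85 and 6.81 against 6.29, 6.39 and 6.35 at 15 min. Those differences were 0.37 ± 0.093 (adjusted p = 0.024) and 0.49 ± 0.10 (adjusted p = 0.017). At 2 h Cyp4f37 had fallen in cub by 0.61 ± 0.093 (adjusted p = 1.1e-04) to 6.14, 6.19 and 5.99, within 0.027 ± 0.093 of wild type. The genotype calls were lost without any 1 array other than cub replicate 3 at 0 h (adjusted p up to 0.19) and without wild-type replicate 1 or 3 or cub replicate 3 at 15 min (adjusted p up to 0.115).

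Cyp4f39, the mouse counterpart of the ichthyosis gene CYP4F22, hydroxylates the very long fatty acids that go into the acylceramides of the skin barrier, and it varied little. Its group means lay between 10.50 and 10.78, with SDs of at most 0.099. It fell by 0.19 ± 0.059 in wild type at 24 h (adjusted p = 0.012), a call lost without wild-type replicate 1 at 24 h (adjusted p = 0.079) or replicate 1 at 0 h (adjusted p = 0.053), and was not called in cub. Cyp4b1 fell in cub by 0.47 ± 0.077 at 24 h (adjusted p = 2.5e-05), with arrays at 8.68, 8.99 and 8.69, and was at -0.067 ± 0.077 in wild type, with arrays at 9.12, 9.15 and 8.99. The genotype difference at 24 h was -0.30 ± 0.077 (adjusted p = 0.024), with groups that touched at 8.99, and the interaction of -0.40 ± 0.11 missed the threshold (adjusted p = 0.085). The difference lost its call without wild-type replicate 1 or 2 or cub replicate 1 or 3 (adjusted p up to 0.14). Cyp2u1 was lower at 2 h in cub by 0.31 ± 0.080 (adjusted p = 0.013, and 0.0685 without cub replicate 1 at 2 h). Cyp4f16 was called in no comparison, with group means from 7.31 to 7.70.

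Of the sterol enzymes, Cyp7b1 and Cyp39a1 both encode hydroxylases of oxysterols on the way to bile acids, and they moved in opposite directions. The enzyme of Cyp7b1 is known to act on oxysterols that activated macrophages make. Its wild-type arrays read 6.0, 6.16 and 6.34 at 0 h and 8.08, 8.45 and 8.31 at 24 h, and its cub arrays 6.08, 6.34 and 6.29 and then 9.23, 8.87 and 9.06. Cyp7b1 rose by 2.11 ± 0.12 in wild type (4.33-fold, adjusted p = 8.0e-12) and by 2.82 ± 0.12 in cub (7.05-fold, adjusted p = 5.9e-14). At 24 h it was higher in cub by 0.77 ± 0.12 (adjusted p = 6.8e-04), a call kept under every alternative. At 2 h it was higher in cub by 0.50 ± 0.12 (adjusted p = 0.020), with arrays at 6.63, 6.34 and 6.72 against 6.26, 5.95 and 5.99. The 2 h call was lost without wild-type replicate 2 or 3 or cub replicate 1 or 3 (adjusted p up to 0.11). The interaction at 24 h, 0.70 ± 0.17, had an adjusted p of 0.049, and it was lost without any 1 array of the 0 h and 24 h groups other than wild-type replicate 1 at 0 h, wild-type replicate 2 at 24 h and cub replicate 2 at 24 h (adjusted p up to 0.14). It was also lost with the mean of all array rows of a gene (adjusted p = 0.0503) and with only the arrays of the groups compared (adjusted p = 0.098).

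Cyp39a1, which acts on another side-chain hydroxylated cholesterol, fell by 1.95 ± 0.093 in wild type (3.87-fold, adjusted p = 4.9e-13) and fell by 2.05 ± 0.093 in cub (4.14-fold, adjusted p = 1.3e-13). Its arrays went from 9.01, 9.08 and 8.88 to 6.94, 6.98 and 7.19 in wild type and from 9.07, 8.68 and 8.84 to 6.79, 6.93 and 6.72 in cub, and its genotypes were not called as different at any time. Cyp27a1, the mitochondrial sterol side-chain hydroxylase, fell by 0.92 ± 0.094 in wild type and by 1.05 ± 0.094 in cub at 24 h. It was higher in cub on average over the times (0.24 ± 0.048, adjusted p = 0.0013). At 0 h it read 8.23, 8.70 and 8.38 against 8.04, 8.11 and 8.13, a difference of 0.34 ± 0.094 (adjusted p = 0.035) that lost its call without any 1 array other than cub replicate 1 (adjusted p up to 0.25), with a difference of 0.21 without cub replicate 2. Macrophage genes were higher in cub in 3 of 7 cases at 0 h and 6 of 7 at 2 h and in none at 24 h. Against 0 h, 4 of the 7 rose in wild type at 24 h, and 4 rose and 1 fell in cub, with median changes of 0.69 and 0.51, and their part in the levels of Cyp27a1 and Cyp7b1 was not tested. Cyp46a1, known as the cholesterol hydroxylase of neurons, was called in no comparison, at group means from 6.12 to 6.36.

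**Figure D5:**
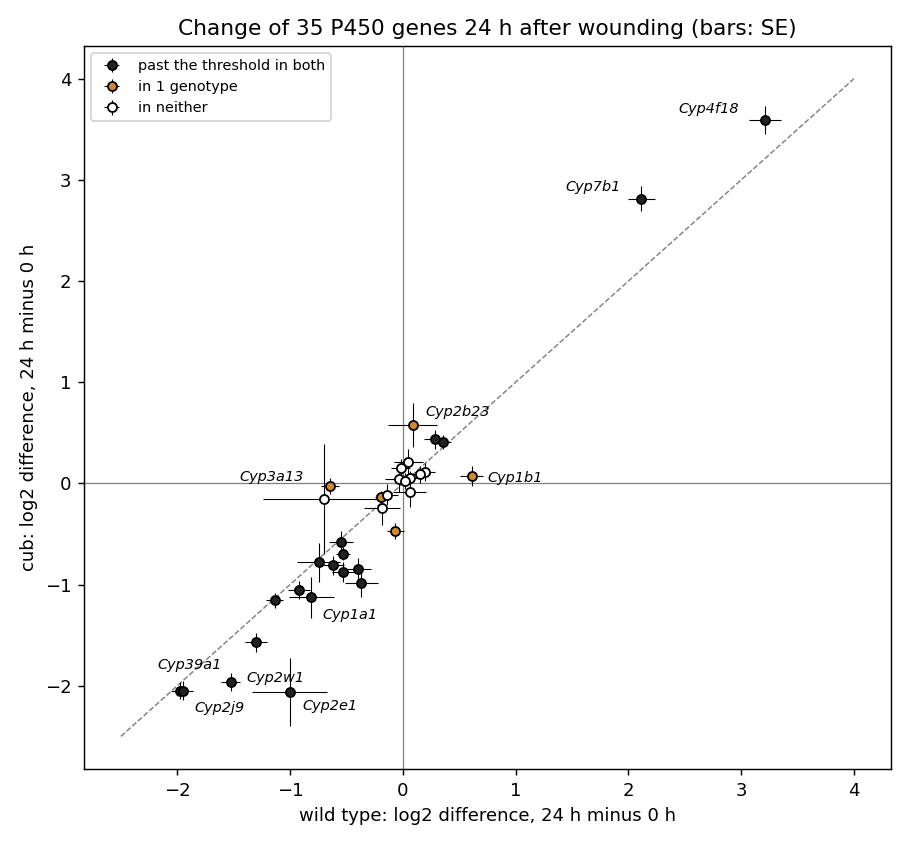
Log2 change at 24 h against 0 h in wild type (horizontal axis) and cub (vertical axis) of the 35 P450 genes, with bars of 1 standard error, a dashed line of equal change and filling by whether the gene was called in both genotypes, in 1 or in neither. Most points follow the line from Cyp2j9 and Cyp39a1 at about -2 to Cyp4f18 above 3, while Cyp3a13 lies at -0.65 in wild type and -0.027 in cub.

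Both steroidogenic members differed between the genotypes, in opposite directions. Cyp17a1 encodes the hydroxylase and lyase of androgen synthesis. It was lower in cub at 0 h (8.09, 8.58 and 8.13 against 8.60, 8.94 and 8.65), at 15 min (8.31 and 8.13 against 9.0, 8.75 and 8.88) and at 2 h (8.34, 8.60 and 8.49 against 9.04, 8.71 and 9.15). The differences of Cyp17a1 were -0.46 ± 0.13, -0.66 ± 0.14 and -0.49 ± 0.13, and at 24 h it was at -0.30 ± 0.13, which was not called (adjusted p = 0.19). On average over the times it was 1.39-fold lower in cub (-0.48 ± 0.065, adjusted p = 3.6e-05), under every alternative, while the calls at single times were lost on leaving out arrays (adjusted p up to 0.19). Those arrays were wild-type replicates 2 and 3 and cub replicates 1 and 3 at 0 h, wild-type replicates 1 and 3 and cub replicate 3 at 15 min, and wild-type replicates 1 and 3 and cub replicates 1 and 3 at 2 h. Cyp11a1 encodes the side-chain cleavage enzyme that starts steroid synthesis from cholesterol. At 2 h it read 6.49, 6.32 and 5.73 in wild type and 7.08, 6.91 and 7.0 in cub, a difference of 0.82 ± 0.15 (adjusted p = 0.0027) kept under every alternative. The low wild-type replicate 3 adds to it, and the cub arrays lay between 6.72 and 7.33 throughout. Neither gene changed with wounding in a called comparison.

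The 3 retinoic acid hydroxylases Cyp26a1, Cyp26b1 and Cyp26c1, which clear retinoic acid and are themselves known retinoic acid targets, were called in no comparison. Their group means lay between 6.52 and 6.97, between 8.96 and 9.24 and between 5.89 and 6.10. Cyp20a1, a P450 of unknown substrate, rose at 24 h by 0.36 ± 0.068 in wild type (adjusted p = 1.5e-04) and by 0.41 ± 0.068 in cub (adjusted p = 2.8e-05), with no genotype difference called. In all, 27 of the 35 genes were called in at least 1 of the 14 comparisons, beside 58.3% of all genes and 76.9% of genes that reached the same level. The 8 called in none were the 3 Cyp26 genes, Cyp46a1, Cyp2c37, Cyp2c66, Cyp4f16 and Cyp2g1.

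Genes that work beside the P450 enzymes were read from 7 lists with 89 genes, of which 75 were tested. Among the 13 retinoid handling genes, 7 rose and 3 fell at 24 h in wild type and 6 rose and 6 fell in cub, although no Cyp26 gene was called. Dhrs9, a retinol dehydrogenase, rose by 2.43 ± 0.24 and 3.03 ± 0.24, and Aldh1a1, which makes retinoic acid, fell by 1.21 ± 0.093 and 0.93 ± 0.093. Rdh10 and Lrat, which oxidize and store retinol, were called as interactions at 24 h (0.52 ± 0.10 and -0.70 ± 0.15, adjusted p = 0.017 and 0.023), the only 2 of the 75 genes to be so. Lrat lay near the level of 6 or below it, with group means from 5.373 to 6.015. Between the genotypes, 2 retinoid genes were higher in cub and 1 lower at 0 h, none was called at 15 min or 2 h, and 1 was higher and 1 lower at 24 h; on average over the times 3 were higher and 1 lower. At 2 h against 0 h none was called in wild type, and 1 rose and 2 fell in cub.

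The eicosanoid list held 17 tested genes, which feed or share the arachidonic acid substrate of the Cyp2 and Cyp4 enzymes. At 24 h 7 rose and 6 fell in wild type and 6 rose and 6 fell in cub. The prostaglandin synthase gene Ptgs2 rose by 4.10 ± 0.33 and 4.88 ± 0.33 and the lipoxygenase gene Alox8 by 3.02 ± 0.35 and 3.03 ± 0.35. Ephx1, whose product opens epoxides, fell by 1.2 ± 0.063 and 1.48 ± 0.063. At 2 h 3 rose and 1 fell in wild type and 2 rose and 1 fell in cub. Ephx3, an epidermal epoxide hydrolase, was higher in cub at all 4 times, by 0.51 ± 0.077, 0.33 ± 0.086, 0.45 ± 0.077 and 0.33 ± 0.077 (adjusted p = 5.8e-04, 0.039, 0.0017 and 0.014). In total 2 eicosanoid genes were higher in cub at 0 h, 1 at 15 min, 2 at 2 h and 1 at 24 h, and 5 on average over the times, with none lower.

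Of 17 cholesterol synthesis genes, 5 were lower and 1 higher in cub at 0 h and 4 were lower at 15 min, 2 were higher at 2 h, none was called at 24 h, and 7 were lower and 1 higher on average. Hsd17b7 and Idi1 were the most lowered at 0 h (-0.51 ± 0.088 and -0.50 ± 0.087, adjusted p = 0.0020 and 0.0023). Cyp51, the lanosterol demethylase, is a P450 whose symbol lacks the last letter and number and so is not a member; it was lower in cub at 15 min by -0.35 ± 0.093 (adjusted p = 0.043). At 24 h after wounding 8 of the 17 fell and 1 rose in wild type and 8 fell and 3 rose in cub, and at 2 h 2 fell in wild type and 1 rose in cub. Of 4 steroid handling genes, Hsd3b6 was lower in cub at 0 h, 15 min and 24 h (-0.77 ± 0.13, -0.67 ± 0.14 and -0.47 ± 0.13, adjusted p = 0.0013, 0.016 and 0.033) and on average, and it rose in cub at 2 h by 0.74 ± 0.13. Hsd3b6 acts between the steps of Cyp11a1 and Cyp17a1, and it was called lower in cub together with Cyp17a1 at 0 h and 15 min, while at 2 h Cyp17a1 alone and at 24 h Hsd3b6 alone was called. Star rose in cub at 24 h by 0.22 ± 0.079, and no steroid gene was called in wild type at 2 h or 24 h. The group means of Star lay below the level of 6, from 5.67 to 5.89.

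Of 6 genes of electron supply, 4 fell at 24 h in wild type, and 4 fell and 1 rose in cub, with Pgrmc2 at -0.63 ± 0.078 and -0.86 ± 0.078 and Cyb5a at -0.23 ± 0.067 and -0.44 ± 0.067. Cyb5b was lower in cub at 15 min, Pgrmc2 and Cyb5a were lower at 24 h, 2 were lower on average, and none was called at 0 h or 2 h or in either 2 h change. Of 6 genes of the AHR pathway, 2 rose and 3 fell at 24 h in each genotype. Tiparp, an AHR target, rose by 1.13 ± 0.084 and 1.5 ± 0.084 and Nqo1 by 0.74 ± 0.11 and 0.44 ± 0.11, while Ahr fell by 0.25 ± 0.071 and 0.56 ± 0.071. Tiparp had risen at 2 h by 1.30 ± 0.084 and 1.33 ± 0.084, and Ahrr, the AHR repressor gene, fell at 2 h in cub by 0.34 ± 0.059. Between the genotypes Ahrr alone was called, higher in cub at 0 h by 0.21 ± 0.059, with 1 gene higher and 1 lower on average. All group means of Ahrr lay below the level of 6, from 5.32 to 5.84. AHR targets thus did not move as one after wounding, since Cyp1a1 fell at 24 h while Tiparp rose.

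Of 12 nuclear receptor genes, 2 rose and 6 fell at 24 h in each genotype. Ppard rose by 0.98 ± 0.068 and 1.19 ± 0.068, Ppara fell by 0.84 ± 0.097 and 1.09 ± 0.097, and Rora fell by 0.81 ± 0.070 and 1.0 ± 0.070. Vdr, the vitamin D receptor gene, rose at 2 h by 0.32 ± 0.069 and 0.35 ± 0.069 and was the only one called at that time. Between the genotypes Ppara was lower (-0.44 ± 0.097) and Ppard higher (0.30 ± 0.068) in cub at 24 h, none was called earlier, and 1 was higher and 2 lower on average. Nr1i3, which encodes CAR and is given here for its known link to Cyp2b10, was called in neither 24 h change, at 0.0033 ± 0.069 in wild type and 0.090 ± 0.069 in cub. Its group means lay between 5.24 and 5.45, below the level of 6, so the missing call says little of CAR. No gene of the 7 lists was called at 15 min against 0 h in either genotype or as an interaction at 15 min or 2 h.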

How the data were processed

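The authors deposited 1 table of log2 values for 23 arrays, which the submitters' processing notes credit to RMA with Affymetrix Expression Console 1.1. Genome build, annotation release and level of summarization are not given in the sources used here. RMA corrects background and fits arrays to each other, so a shift common to all genes is lost. Of 35556 array rows, 21789 carried 1 gene symbol, 1621 several and 12146 none. Rows with 1 symbol were kept, taking the row with the highest mean for each gene, which left 19938 genes. limma 3.58.1 in R 4.3.3 fitted 1 mean per group over all 23 arrays (15 residual and 5.62 prior degrees of freedom), and 14 comparisons were tested two-sided with Benjamini-Hochberg adjustment over all genes at 0.05. The labels call the arrays biological replicates. The number of arrays limits the precision.

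The members, the gene lists and the classes were chosen with earlier results of these data known. All 35 members are named or counted. Array values are given for those called between genotypes or as interactions and for the largest changes after wounding, and at most the 4 largest called genes of a pathway list are named in a comparison. Comparisons that share arrays, such as 2 h and 24 h against the same 0 h arrays, are not independent. Alternatives were centring each array on its median, quantile normalization over the genes tested, only genes at the level of 6, the mean of all array rows of a gene, a block for the replicate number, a fit on no arrays but those of the groups compared, and leaving out each array. Promoter windows came from RefSeq (GRCm38.p6) and were aligned globally in Biopython 1.88 (match 1, mismatch -1, gap opening -3, extension -1). Rows with several symbols, 7 of which hold a P450 gene, were not used.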

Additional observations from a re-analysis of the deposited data

Results flagged for a closer look

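In 2 P450 genes the change from 0 h to 24 h differed between the genotypes by a test of the difference itself, limma's interaction term. For Cyp3a13 the change in cub minus the change in wild type was 0.62 ± 0.12 on the log2 scale (adjusted p = 0.011; 3 arrays per group). It was called under all 18 alternatives that bear on it, with adjusted p between 0.0067 and 0.035. For Cyp7b1 the difference was 0.70 ± 0.17 (adjusted p = 0.049), and it was called in 6 of 18 alternatives, with adjusted p between 0.022 and 0.14. In Cyp7b1 both genotypes rose and cub rose further, and in Cyp3a13 the 24 h fall was called in wild type and not in cub.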

How the results depend on the processing

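Of the 100 calls of P450 genes over the 14 comparisons, 66 were kept under every alternative, 34 were lost under at least 1, and none changed direction. The calls at 24 h against 0 h were the most stable, with 17 of 22 kept in wild type and 20 of 21 in cub, beside 2 of 8, 0 of 6, 3 of 7 and 5 of 9 between the genotypes at 0 h, 15 min, 2 h and 24 h. Fitting only the arrays of the groups compared, which leaves fewer samples, lost 19 calls in all, not all of which are named with their genes above. That fit gave 2 P450 genes between the genotypes at 0 h, 3 at 15 min and 5 at 24 h. It gave 5 at 2 h against 0 h in wild type and 1 as an interaction at 24 h. Leaving out 1 array gave between 3 and 6 genes at 0 h, 0 and 6 at 15 min, 3 and 6 at 2 h, 5 and 10 at 24 h, and 1 and 3 as interactions at 24 h. The mean of all array rows of a gene left 1 interaction at 24 h. No P450 member had several rows, so only values of other genes changed. The Cyp7b1 difference stayed at 0.70, with an adjusted p of 0.0503. Centring lost 1 call and gained 4, quantile normalization lost 1 and gained 6, and the level filter lost 0 and gained 2. Same-numbered arrays of the 2 genotypes deviated together (r over 0.1) in 5 of 11 pairs, with r from -0.296 to 0.258. Deviations within groups of 2 or 3 arrays are tied by the group mean, so these values cannot tell whether the numbers pair the samples. With the replicate number as a block, 2 calls were lost and 3 were gained. At 24 h 1 interaction was left, that of Cyp3a13, while that of Cyp7b1 was lost (adjusted p = 0.068).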

Other observations

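One array row that carried the symbols Cyp4v3 and Klkb1 together, and so stood outside the genes tested, had group means of 6.78, 6.88, 6.87 and 6.42 at 0 h, 15 min, 2 h and 24 h in wild type and 7.11, 6.93, 6.90 and 6.45 in cub. Cyp4v3 is a fatty acid hydroxylase and Klkb1 encodes plasma prekallikrein, and the row cannot tell them apart. The row was not tested.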
